A study of Homo sapiens with 4 samples.

Results

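The genes described are 50 genes of mitosis and the spindle checkpoint, chosen by symbol, of 56655 gene symbols in the count tables. All 50 were expressed strongly enough to be tested, of 16417 genes in all. They were measured by poly(A) RNA-seq in OVCAR5 (OVCAR-5 in the labels), an established human ovarian cancer cell line labelled as high grade serous. The shCtrl group (n = 2 libraries) carried a nontargeting hairpin RNA, and the shFOXK2 group (n = 2) carried a single hairpin against the forkhead transcription factor gene FOXK2. Both were delivered by lentivirus and the stably transduced cells were selected with puromycin, so integration and drug selection are shared by all 4 libraries, which the submitters call biological duplicates. With a single hairpin per group, an effect of that hairpin outside FOXK2 and an effect of losing FOXK2 cannot be told apart.

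Mitosis is started by the kinase CDK1 with a cyclin B partner, and the chromosomes are then folded by condensin, untangled by topoisomerase II and moved along spindle microtubules by kinesin motors. Kinetochores, the protein plates built on centromeres, hold the microtubules, and the spindle checkpoint blocks the anaphase-promoting complex until every chromosome is attached. Separase then cuts cohesin, and the midbody machinery divides the cell. Most of these genes are transcribed late in the cell cycle, in G2 and M phase, through promoters that often carry a CHR element (cell cycle genes homology region) and CCAAT boxes, which are bound by the MuvB core with its partners and by NF-Y. Transcripts of this kind are commonly read as a sign of how many cells in a culture divide.

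The promoter sequences come first because the shared promoter elements are a property that the choice of genes did not use. RefSeq promoters (GRCh38.p14, from 250 bases before to 50 bases after the start of transcription) were at hand for 43 of the 50 genes. A CHR was searched for as the letters TTTGAA and as the rarer form TTCGAA, on both strands. The CCAAT box was searched for by its 5 letters, and the forkhead core, which forkhead factors bind, by the letters TGTTTAC. A CHR match was found in 32 of the 43 promoters (74.4%), against 16.6% of all 27305 promoters of the same length. CCAAT was present in 31 (72.1%, against 35.7% of all), and both together in 24 (55.8%, against 6.58%). The forkhead letters were found in 1 of the 43 (2.33%, against 3.41% of all), the promoter of CDK1. Below are the 210 bases before the start of transcription for 7 genes, 5′ to 3′ on the strand of the gene, with matches in capitals. A match on the other strand is printed as its reverse complement, so that a CCAAT box there reads ATTGG, and none of the matches shown overlap. The set holds genes with large rises (KIF20B, CENPE, TOP2A), rises at low A content (CDC20, PLK1), the gene with the forkhead letters (CDK1) and a gene that did not rise (KIF20A).
CDC20 (chr1:43358771-43358980, plus strand): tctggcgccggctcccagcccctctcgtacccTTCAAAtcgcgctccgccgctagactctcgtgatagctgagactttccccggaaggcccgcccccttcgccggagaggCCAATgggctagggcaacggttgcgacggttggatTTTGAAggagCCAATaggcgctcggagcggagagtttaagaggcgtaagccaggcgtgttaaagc
PLK1 (chr16:23678679-23678888, plus strand): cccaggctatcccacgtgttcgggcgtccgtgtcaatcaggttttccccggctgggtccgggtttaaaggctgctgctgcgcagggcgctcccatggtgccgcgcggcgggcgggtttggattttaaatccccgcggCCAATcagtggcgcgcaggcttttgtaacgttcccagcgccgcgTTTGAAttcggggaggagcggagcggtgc
CDK1 (chr10:60778121-60778330, plus strand): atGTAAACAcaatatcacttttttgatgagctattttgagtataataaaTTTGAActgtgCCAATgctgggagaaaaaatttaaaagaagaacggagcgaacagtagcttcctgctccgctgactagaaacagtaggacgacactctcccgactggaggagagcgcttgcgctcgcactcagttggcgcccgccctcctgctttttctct
TOP2A (chr17:40417897-40418106, minus strand): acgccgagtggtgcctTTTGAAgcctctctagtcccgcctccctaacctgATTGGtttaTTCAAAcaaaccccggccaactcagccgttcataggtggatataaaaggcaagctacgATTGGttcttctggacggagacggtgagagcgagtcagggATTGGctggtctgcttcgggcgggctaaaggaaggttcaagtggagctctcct
KIF20B (chr10:89701380-89701589, plus strand): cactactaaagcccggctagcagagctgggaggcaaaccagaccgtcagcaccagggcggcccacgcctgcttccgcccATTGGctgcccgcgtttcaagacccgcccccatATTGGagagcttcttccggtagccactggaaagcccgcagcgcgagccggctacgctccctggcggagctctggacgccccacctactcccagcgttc
CENPE (chr4:103198344-103198553, minus strand): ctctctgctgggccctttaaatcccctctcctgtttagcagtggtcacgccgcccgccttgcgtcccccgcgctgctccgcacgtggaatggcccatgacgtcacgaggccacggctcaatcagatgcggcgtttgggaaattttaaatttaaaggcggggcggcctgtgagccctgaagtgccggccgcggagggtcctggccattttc
KIF20A (chr5:138178902-138179111, plus strand): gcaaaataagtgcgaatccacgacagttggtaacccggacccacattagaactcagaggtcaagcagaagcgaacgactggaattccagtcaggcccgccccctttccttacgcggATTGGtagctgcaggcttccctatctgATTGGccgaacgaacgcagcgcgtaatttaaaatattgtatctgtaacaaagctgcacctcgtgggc
KIF20B carries its CHR letters outside the stretch shown, at positions 25 and 31 after the start, and TOP2A has a further CCAAT box at position −244. CENPE holds none of the 3 motifs in the window, and KIF20A holds CCAAT boxes without a CHR. Of the 32 genes with a promoter entry that were higher in shFOXK2, 28 held a CHR and 23 a CCAAT box. Of the other 11, 4 held a CHR and 8 a CCAAT box. The difference was not tested, and it depends on the calls used. With allowance for A content (below), ANLN, BUB1, BUB1B, DLGAP5, ECT2, KIF18A, KIF23, KIF4A and NDC80 lost their call, and all hold a CHR. Of genes that gained a call, CCNB2 and INCENP hold a CHR and CDC25C and KIF2C do not. A match describes letters in a sequence and was not tested as a bound site.

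The 4 libraries held between 14284005 and 21950873 counts, and 3 counts correspond to 0.137 to 0.21 CPM, the unit of counts after scaling for library size. FOXK2, the targeted gene, had 1796 and 1499 counts in shCtrl against 1086 and 1084 in shFOXK2. That is 86.9 ± 9.10 CPM against 67.95 ± 11.9 (SD, n = 2 each), with a log2 fold change of −0.36 (adjusted p-value 0.257, SE 0.25). Its call did not change under any alternative that kept all libraries, and with 1 library left out its log2 fold change ran from −0.57 to −0.22. With allowance for A content or GC content (below) the log2 fold change was −0.04 or −0.07. The groups thus did not overlap, but the fall did not pass the test. Both shFOXK2 libraries were below both shCtrl libraries for 36.2% of all tested genes. The epithelial markers EPCAM, KRT7, KRT8, KRT18 and KRT19 were abundant in every library, while CDH1 had 459 and 260 counts in shCtrl against 13 and 24 in shFOXK2. Of 4 ovarian serous markers, WT1 and SOX17 had at most 3 counts in any library and the other 2 were called lower, PAX8 with 351 and 335 counts in shCtrl against 156 and 162 in shFOXK2 and MUC16 with 397 and 145 against 0 and 8. The summed level of 17 fibroblast, leukocyte and endothelial markers was 49.3 and 49.4 CPM in shCtrl against 26.3 and 25.1 in shFOXK2, with 11 of the 17 at 10 counts or fewer in every library. MALAT1, a nuclear long noncoding RNA, took 0.0427% and 0.0239% of counts in shCtrl against 1.19% and 1.02% in shFOXK2, and the part of these shifts in the results below was not tested.

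Transcripts of the mitotic genes were more abundant in shFOXK2 than in shCtrl cells. By the edgeR quasi-likelihood test, with p-values adjusted over all 16417 genes, 35 of the 50 were higher in shFOXK2, none was lower and 15 did not pass the threshold. Of all tested genes, 48.4% were called in either direction, 25.7% higher and 22.7% lower. At an unadjusted p-value under 0.05, 36 of the 50 were higher and 0 lower, and by DESeq2 35 were higher and 0 lower. The median log2 fold change of the 50 genes was 1.31, with a range from −0.17 to 4.98, and that of all tested genes was 0.04. A log2 fold change of at least 2 with a call was reached by 15 of the 50, against 1722 (10.5%) of the 16417 tested genes. Among the called rises alone these are 15 of 35 and 1722 of 4219, shares that lie close together. Both shFOXK2 libraries lay above both shCtrl libraries for 43 of the 50, against 39.2% of all tested genes, and below both for NCAPD2 alone, against 36.2%. In bulk RNA, more cells in G2 and M phase and more transcript in each such cell cannot be told apart.

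**Figure D1:**
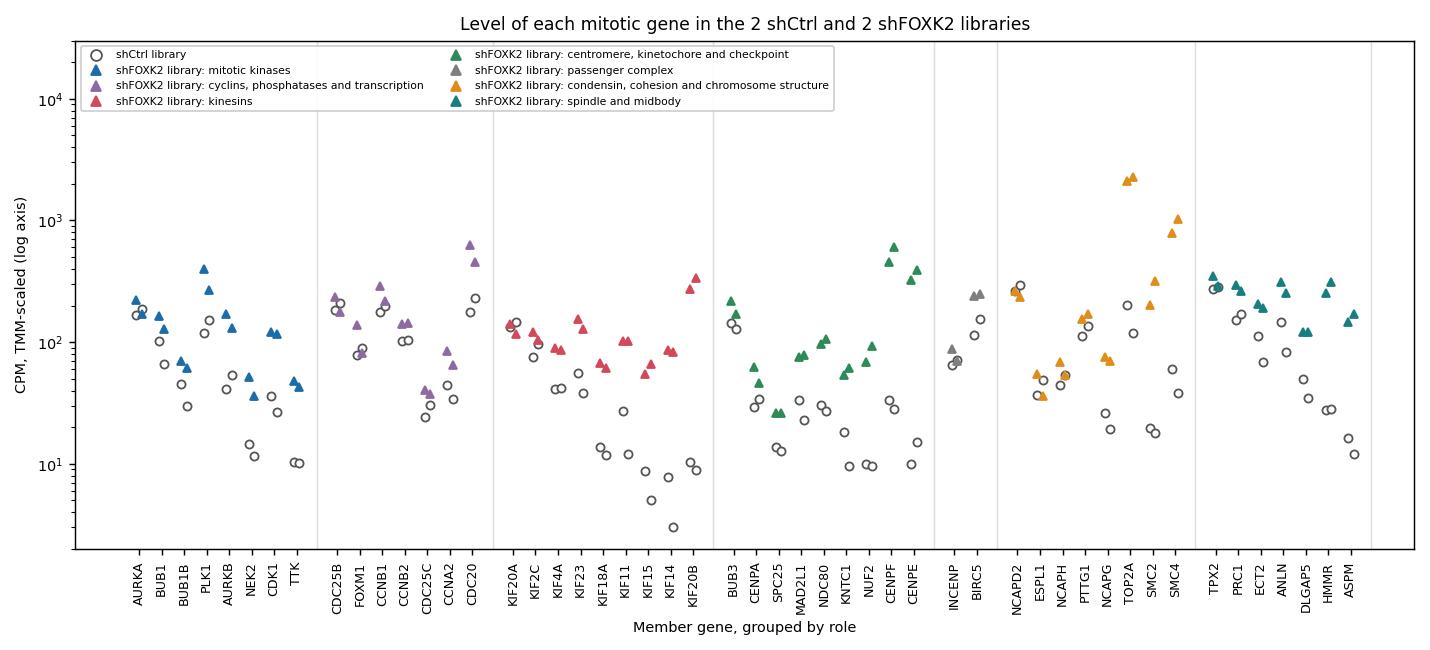
Level of each of the 50 genes in each library, in TMM-scaled CPM on a log axis, grouped by role. Open circles are the 2 shCtrl libraries and triangles the 2 shFOXK2 libraries. Triangles sit above both circles for 43 of the 50 genes, and the widest gaps are those of KIF20B, CENPE, SMC4 and CENPF.

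The summed level of the 50 genes was 3742 and 3723 CPM in the shCtrl libraries and 10990 and 10901 CPM in the shFOXK2 libraries. TOP2A was the largest contributor, and without it the sums were 3541 and 3604 against 8894 and 8628 CPM. The rise was thus present in each library and did not rest on TOP2A. Each pairing of a shCtrl with a shFOXK2 library gave a median log2 difference of at least 1.14 over the 50 genes, with at most 0.06 over all tested genes. With shCtrl replicate 1 left out, 32 genes remained higher, and the calls of BIRC5, CENPA and PRC1 were lost. Without shCtrl replicate 2 the number was also 32, with BUB1, BUB1B and CCNA2 lost. Leaving out shFOXK2 replicate 1 gave 30 and lost BUB1, BUB1B, CCNA2, CENPA and PRC1, while leaving out shFOXK2 replicate 2 gave 35.

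The size of the rise followed the base composition of the transcripts. Over the 50 genes, Spearman's rho between the log2 fold change and the share of A bases in the canonical transcript was 0.79, a correlation across genes measured in the same libraries. It was −0.78 with GC content, 0.33 with transcript length and −0.69 with the level in shCtrl. That level is also the denominator of the fold change, so the last value is not independent of it. Over the 14513 tested genes with a composition value, which are 88.4% of those tested, rho with A content was 0.33. The 20 mitotic genes with an A content of 32% or more all rose, with a median log2 fold change of 3.08, against 63.8% risen and a median of 1.26 among all 1201 tested genes of that range. Between 26% and 32%, 10 of 20 rose with a median of 0.65, against 23.6% and 0.10 of all 6021 such genes. Below 26%, 5 of 10 rose with a median of 0.58, where 14.2% of all 7291 such genes rose and the median was −0.32. At each range of A content the median of the mitotic genes was above that of all genes. Replicates of one group also differed along A content: among the mitotic genes of 32% or more, shCtrl replicate 1 exceeded replicate 2 by a median of 0.43 on the log2 scale (0.51 over all such genes), and below 26% it was −0.28 (−0.21). Between the shFOXK2 replicates the difference ran the other way, at −0.12 (−0.18 over all genes) for 32% or more and 0.42 (0.12) below 26%.

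**Figure D2:**
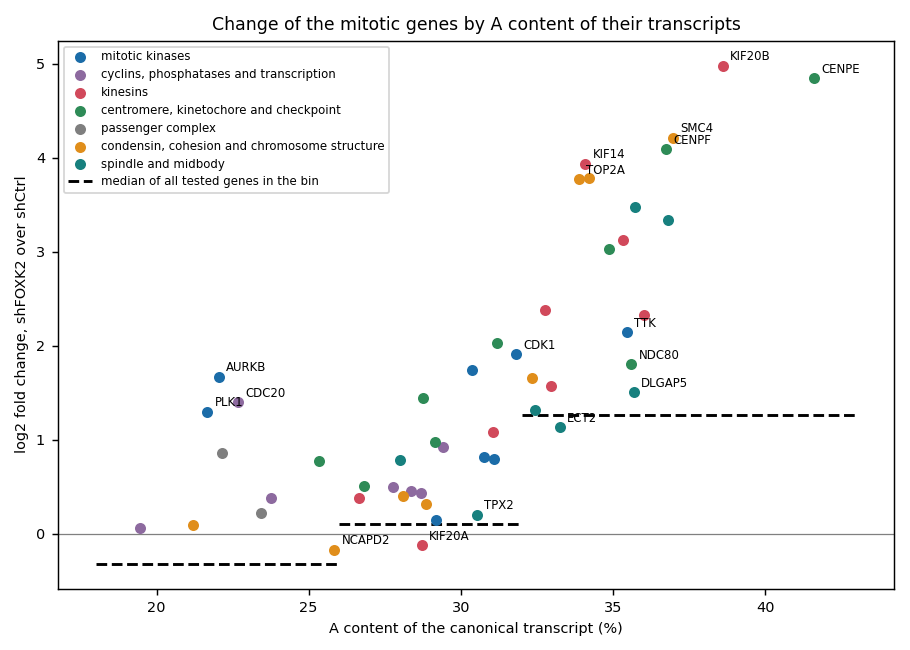
Log2 fold change (shFOXK2 over shCtrl) of each of the 50 genes against the A content of its canonical transcript in percent, coloured by role. Dashed lines give the median of all tested genes below 26%, from 26% to 32% and from 32% up, at −0.32, 0.10 and 1.26. The 20 mitotic genes at 32% or more have a median of 3.08, and PLK1, CDC20 and AURKB lie well above the dashed line at low A content.

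Because of this relation, each gene was also fitted with a smooth offset on A content in every library, which removes what genes of like composition share. Over all tested genes it moved the log2 fold change up by a median of 0.29, while the median of the 50 genes fell from 1.31 to 0.73. Under the A-content offset 31 of the 50 genes were higher and 0 lower, against 28.9% and 22.8% of all tested genes, and the median log2 fold change of the 50 was 0.73 against 0.08 over all genes. Of the 35 calls 25 were shared. ANLN, BUB1, BUB1B, DLGAP5, ECT2, KIF18A, KIF23, KIF4A, NDC80 and TTK lost theirs, and BUB3, CCNB2, CDC25C, FOXM1, INCENP and KIF2C were called in addition. With an offset on GC content 39 were higher and 0 lower, against 29.4% and 24% of all tested genes, and the median was 0.95. Of the 35 calls 33 were shared, ECT2 and SPC25 lost theirs, and CCNB2, CDC25C, FOXM1, INCENP, KIF2C and PTTG1 were called in addition. The relation with A content fell to a rho of 0.13 under the A-content offset. Values under the A-content offset stand beside the 50 genes below, but beside only some of the other genes named.

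Of the 8 mitotic kinases, all but AURKA, thus 7, were higher in shFOXK2, with a median log2 fold change of 1.49 (4 and 0.72 under the A-content offset). CDK1, the kinase that drives entry into mitosis, had 813 and 425 counts in shCtrl against 1710 and 2126 in shFOXK2. It went from 31.5 ± 7.05 to 119 ± 2.42 CPM (n = 2 each, ± SD), with a log2 fold change of 1.91 (adjusted p-value 8.21e-05, SE 0.26), and of 1.12 with the offset. PLK1, which acts at centrosomes, kinetochores and the midbody, had 2673 and 2447 counts against 5699 and 4903, and went from 136 ± 23.1 to 335 ± 92.8 CPM. Its log2 fold change was 1.30 (adjusted p-value 0.00122, SE 0.26) and, at an A content of 21.7%, rose to 1.62 with the offset. AURKB, the kinase of the chromosomal passenger complex, had 920 and 860 counts against 2424 and 2398, a log2 fold change of 1.67 (adjusted p-value 0.000200, SE 0.26) and of 2.00 with the offset. For these 3 kinases the libraries of the groups were far apart in each case and the call held with every alternative that kept all libraries.

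AURKA, the Aurora kinase of the spindle poles, did not pass the threshold. Its counts of 3765 and 3023 in shCtrl against 3174 and 3127 in shFOXK2 overlapped after scaling, and the log2 fold change was 0.15 (adjusted p-value 0.640, SE 0.24), −0.01 under the A-content offset and −0.08 without shFOXK2 replicate 1. The difference between the 2 Aurora kinases was not itself tested. The checkpoint kinase TTK (MPS1), at an A content of 35.5%, had 231 and 162 counts against 683 and 774, a log2 fold change of 2.15 (adjusted p-value 4.48e-05, SE 0.27) that shrank to 0.28 (adjusted p-value 0.331) with the offset. BUB1, which loads checkpoint proteins onto kinetochores, had 2274 and 1061 counts against 2338 and 2315, and its log2 fold change of 0.79 (adjusted p-value 0.0261, SE 0.27) was 0.23 (adjusted p-value 0.349) with the offset. BUB1B (BUBR1), part of the complex that inhibits the anaphase-promoting complex, had 1003 and 478 counts against 1004 and 1125, with 0.82 (adjusted p-value 0.0232, SE 0.27) and 0.33 (adjusted p-value 0.155) with the offset. For both BUB genes shCtrl replicate 2 was the lowest library, and without it their log2 fold changes were 0.44 and 0.48 and no longer passed. NEK2, a centrosome kinase, rose from 13.0 ± 2.04 to 43.8 ± 10.6 CPM and had a log2 fold change of 1.75, or 1.34 with the offset.

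The cyclins and mitotic phosphatases, grouped with FOXM1 and CDC20, had the lowest median of the 7 groups. Of 7 genes 2 were higher (28.6%, close to the 25.7% of all tested genes). The median log2 fold change was 0.46 (5 higher and a median of 0.59 under the A-content offset). CDC20, the activator of the anaphase-promoting complex that the checkpoint holds in check, had 3953 and 3716 counts in shCtrl against 8862 and 8311 in shFOXK2. It went from 204 ± 38.4 to 540 ± 118 CPM and had a log2 fold change of 1.40 (adjusted p-value 0.000625, SE 0.26) and 1.74 with the offset. CCNA2 (cyclin A2) had a log2 fold change of 0.92 (adjusted p-value 0.0107, SE 0.26) and 0.75 with the offset. CCNB1 (cyclin B1), a partner of CDK1, had 3955 and 3156 counts against 4081 and 3990. Its level was 187 ± 13.7 against 253 ± 47.9 CPM, and the log2 fold change of 0.44 (adjusted p-value 0.144, SE 0.24) did not pass. With the offset it was 0.39 (adjusted p-value 0.154). CDK1 and CCNA2 thus passed the threshold and CCNB1 did not, and the differences between them were not tested.

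CCNB2 (cyclin B2) had a log2 fold change of 0.46 and CDC25C, a phosphatase that activates CDK1, one of 0.50. Neither passed the threshold, and both passed under the A-content offset, at 0.48 and 0.59. CDC25B, which had the smallest change of the group, had 4073 and 3355 counts against 3334 and 3207 and a log2 fold change of 0.07 (adjusted p-value 0.837, SE 0.24). It was 0.43 (adjusted p-value 0.0609) under the A-content offset and 0.41 with that on GC, turned to −0.03 when no filter on low counts was applied, and ran from −0.18 to 0.23 with 1 library left out. FOXM1, the forkhead factor that activates many G2 and M genes, had 1761 and 1443 counts against 1980 and 1482. One shFOXK2 library was above both shCtrl libraries and the other was between them, at 139 and 81.4 CPM against 78.9 and 89.9. Its log2 fold change was 0.39 (adjusted p-value 0.269, SE 0.28), 0.73 (adjusted p-value 0.0276) under the A-content offset and −0.08 without shFOXK2 replicate 1. FOXM1 overlaps ITFG2 and RHNO1 on the other strand, so its reads could not be told from theirs if strand was not used.

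The kinesins had the highest median of the groups, a log2 fold change of 2.33, with 7 of 9 higher (5 and 0.62 under the A-content offset). KIF20B (MPP1), a motor of late mitosis and cytokinesis, had the largest rise of all 50 genes, with 231 and 143 counts in shCtrl against 3895 and 6115 in shFOXK2. It went from 9.63 ± 1.02 to 305 ± 43.9 CPM and had a log2 fold change of 4.98 (adjusted p-value 2.19e-07, SE 0.28), and of 2.23 with the offset at an A content of 38.6%. KIF14, which works at the midbody with PRC1 and citron kinase, had 175 and 49 counts against 1228 and 1512, a log2 fold change of 3.94 (adjusted p-value 7.45e-06, SE 0.39) and 2.52 with the offset. Without shCtrl replicate 1 it was 4.76, and over the 4 fits that leave out a library it ran from 3.36 to 4.76. KIF11 (Eg5), the motor that pushes the spindle poles apart, had 606 and 192 counts against 1466 and 1859. The shCtrl libraries differed from each other, at 27.16 and 11.96 CPM, yet both were far below the shFOXK2 libraries at 103 and 102 CPM. The log2 fold change of KIF11 was 2.38 (adjusted p-value 0.000118, SE 0.34) and 1.36 with the offset, and it was 3.06 without shCtrl replicate 1.

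KIF15, a motor that can take over from KIF11, rose by a log2 fold change of 3.13 and KIF18A, which limits the swing of aligned chromosomes, by 2.33. With the A-content offset KIF15 stood at 1.34 and KIF18A at 0.32 (adjusted p-value 0.216). KIF23, the centralspindlin motor, had 1.58 and KIF4A, a chromosome arm motor, 1.09, and both lost their call with the offset, at 0.44 and 0.46. KIF2C (MCAK), which takes microtubules apart at centromeres, had 86.3 ± 15.1 against 112 ± 10.7 CPM and a log2 fold change of 0.38 (adjusted p-value 0.212), which passed under the A-content offset at 0.62 (adjusted p-value 0.0228). KIF20A (MKLP2), the motor that carries the passenger complex to the central spindle and a paralog of KIF20B, had 2972 and 2368 counts against 2020 and 2117. Its level was 140 ± 10.1 against 129 ± 18.2 CPM, with a log2 fold change of −0.12 (adjusted p-value 0.699, SE 0.23). The log2 fold change was −0.17 under the A-content offset and became 0.10 with the GC offset, and KIF20A overlaps BRD8 and CDC23. In shCtrl, KIF20A was at 45.4 CPM per kb of transcript and KIF20B at 1.495, and in shFOXK2 they were at 41.7 and 47.3.

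Of 9 centromere, kinetochore and checkpoint genes 8 were higher, with a median log2 fold change of 1.81, and 8 with a median of 1.20 were higher under the A-content offset, under which BUB3 gained a call and NDC80 lost it. CENPE, the kinetochore kinesin that carries chromosomes to the spindle equator, had 223 and 241 counts in shCtrl against 4634 and 7115 in shFOXK2. It went from 12.5 ± 3.55 to 358 ± 46.0 CPM and had a log2 fold change of 4.85 (adjusted p-value 3.16e-07, SE 0.30). At 41.6%, the highest A content of the 50 genes, it kept 1.20 with the offset. CENPF, a large coiled-coil protein of the outer kinetochore, had 747 and 454 counts against 6474 and 10923, a log2 fold change of 4.09 (adjusted p-value 4.45e-07, SE 0.27) and 1.86 with the offset. In mean CPM these are 28.7-fold and 17.1-fold differences, wider than any gap between replicates of these genes.

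Of the NDC80 complex, which binds the microtubule end, the 50 genes include NUF2, NDC80 and SPC25. NUF2 rose from 9.85 ± 0.272 to 80.4 ± 17.0 CPM and had a log2 fold change of 3.03 and of 1.31 under the A-content offset. NDC80 had 684 and 434 counts against 1372 and 1923, a log2 fold change of 1.81 (adjusted p-value 8.99e-05, SE 0.25) that turned to −0.10 (adjusted p-value 0.663) with the offset. SPC25, with the smallest value of these genes, was at 0.98 (adjusted p-value 0.00894, SE 0.27) and 0.85 with the offset, but did not pass under the GC offset, at 0.51 (adjusted p-value 0.0796). MAD2L1 (MAD2), the checkpoint protein that captures CDC20, had 744 and 367 counts against 1069 and 1428, with log2 fold changes of 1.45 (adjusted p-value 0.000724, SE 0.27) and 1.42 with the offset. KNTC1, a subunit of the complex that brings MAD1 and MAD2 to kinetochores, rose by 2.04 (1.46 with the offset), and CENPA, the histone H3 variant of centromeres, by 0.77 (1.09 with the offset). The call of CENPA (adjusted p-value 0.0267) was lost with the replicate number as a block (adjusted p-value 0.0556). BUB3, the partner of BUB1 and BUB1B, with 3185 and 2064 counts against 3091 and 3081, had a log2 fold change of 0.51 (adjusted p-value 0.0910, SE 0.24) and 0.73 (adjusted p-value 0.00991) with the offset. The 3 BUB genes of the checkpoint thus had log2 fold changes between 0.51 and 0.82, below those of MAD2L1 and KNTC1.

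Besides AURKB, the chromosomal passenger complex was represented by 2 genes. BIRC5 (survivin) had 2556 and 2489 counts in shCtrl against 3426 and 4513 in shFOXK2, and went from 135 ± 28.6 to 244 ± 5.00 CPM. Its log2 fold change was 0.86 (adjusted p-value 0.00966, SE 0.24) and 1.20 under the A-content offset. INCENP, the scaffold, had 1444 and 1142 counts against 1261 and 1271, with 0.22 (adjusted p-value 0.484, SE 0.25) and 0.57 (adjusted p-value 0.0235) with the offset.

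Of the 8 genes of condensin, cohesion and chromosome structure 4 were higher, with a median log2 fold change of 1.03 (4 and 0.57 under the A-content offset). SMC2 and SMC4 form the ATPase pair that all condensins share. SMC4 had 1340 and 611 counts in shCtrl against 11223 and 18853 in shFOXK2, and went from 49.1 ± 15.6 to 912 ± 174 CPM and had a log2 fold change of 4.22 (adjusted p-value 8.29e-07, SE 0.31). SMC2 had 437 and 287 counts against 2855 and 5756, a log2 fold change of 3.79 (adjusted p-value 1.36e-06, SE 0.29). With the offset SMC4 kept 1.95 and SMC2 2.24. SMC4 overlaps IFT80 and TRIM59 on the other strand. The 3 other subunits of condensin I changed less. NCAPG rose by 1.66 (adjusted p-value 0.000254, SE 0.27) and by 0.70 with the offset. NCAPH had 0.32 (adjusted p-value 0.319, SE 0.25) and 0.24 (adjusted p-value 0.419) with the offset, and NCAPD2 had 5877 and 4766 counts against 3716 and 4317. NCAPD2 was the one gene of the 50 with both shFOXK2 libraries below both shCtrl libraries, at 280 ± 23.7 against 249 ± 17.0 CPM, but its log2 fold change of −0.17 (adjusted p-value 0.563, SE 0.23) did not pass and became 0.14 when the A-content offset was applied and 0.15 with that on GC.

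TOP2A, the topoisomerase that untangles sister chromatids, was the most abundant of the 50 transcripts in shFOXK2. It had 4485 and 1908 counts in shCtrl against 29819 and 41370 in shFOXK2, and went from 160 ± 58.1 to 2184 ± 125 CPM. The log2 fold change was 3.77 (adjusted p-value 2.02e-06, SE 0.31) and 2.38 under the A-content offset. The shCtrl libraries were at 201 and 119 CPM, both far below the shFOXK2 libraries at 2096 and 2273 CPM. PTTG1 (securin), the inhibitor of separase, had 124 ± 17.0 against 164 ± 10.9 CPM and a log2 fold change of 0.40 (adjusted p-value 0.174, SE 0.23). PTTG1 passed under the GC offset at 0.51 (adjusted p-value 0.0395), but not under the A-content offset at 0.45 (adjusted p-value 0.0845). ESPL1, separase itself, had 814 and 781 counts against 782 and 651, a log2 fold change of 0.09 (adjusted p-value 0.814, SE 0.28). It was 0.42 under the A-content offset and 0.40 under that on GC, without passing, turned to −0.01 when no filter was applied, and ran from −0.28 to 0.34 with 1 library left out.

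Among the 7 spindle and midbody genes 6 were higher, with a median log2 fold change of 1.31, and 3 under the A-content offset, at a median of 0.37. The median ran from 0.89 without shCtrl replicate 2 to 1.74 without shCtrl replicate 1. ASPM, a spindle pole protein that sets spindle orientation, had 363 and 194 counts in shCtrl against 2088 and 3076 in shFOXK2. It went from 14.2 ± 2.96 to 158 ± 15.7 CPM and had a log2 fold change of 3.47 (adjusted p-value 1.68e-06, SE 0.28) and 1.55 with the offset. HMMR (RHAMM), which binds spindle microtubules, went from 28.0 ± 0.239 to 283 ± 38.8 CPM and had a log2 fold change of 3.34 and 1.07 with the offset. These are 11.1-fold and 10.1-fold differences in mean CPM, and the groups lay far apart for both genes. TPX2, the activator of AURKA on the spindle, had 6109 and 4528 counts against 5006 and 5271. Its level was 278 ± 5.82 against 321 ± 44.1 CPM and its log2 fold change 0.21 (adjusted p-value 0.480, SE 0.23), −0.29 with the offset. AURKA and TPX2 therefore both remained below the threshold.

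DLGAP5 (HURP), a stabiliser of the fibres between kinetochore and pole, rose by a log2 fold change of 1.51 (adjusted p-value 0.000437, SE 0.26), but under the A-content offset it was at −0.39 (adjusted p-value 0.0823). ECT2, the exchange factor that switches on RhoA for the contractile ring, had 1.14 (adjusted p-value 0.00338, SE 0.27), −0.07 with the offset and 0.75 without shCtrl replicate 2. ANLN (anillin), the scaffold of that ring, had 1.31 (adjusted p-value 0.00189, SE 0.28) and 0.37 with the offset. PRC1, which bundles the microtubules of the central spindle, had 0.79 (adjusted p-value 0.0119, SE 0.23) and 0.85 with the offset. Of these cytokinesis genes PRC1 kept its call with the offset, while ANLN and ECT2 did not.

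**Figure D3:**
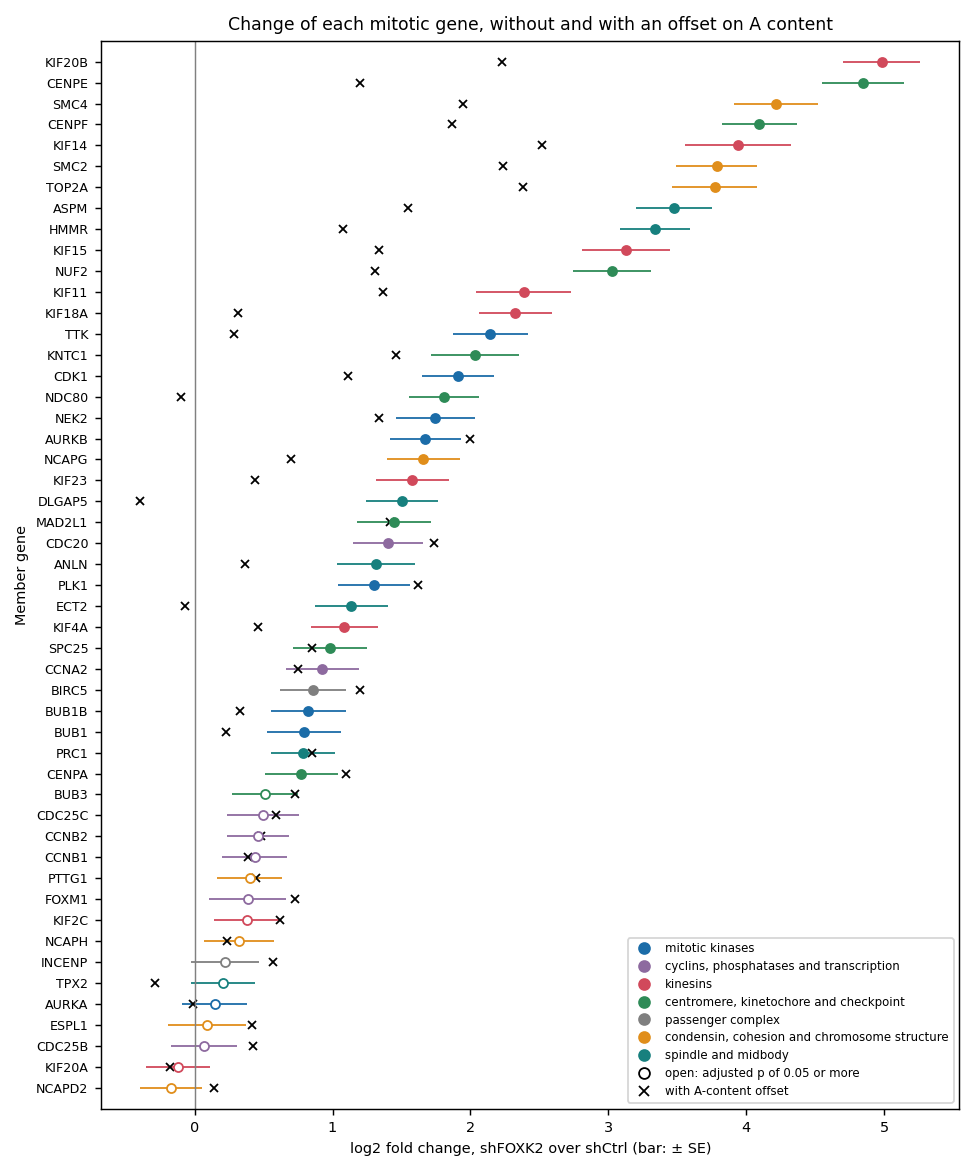
Log2 fold change (shFOXK2 over shCtrl) of the 50 genes in order of size, coloured by role, with bars of ± 1 SE. Filled points had an adjusted p-value under 0.05, open points did not, and crosses give the value under the A-content offset. The 35 filled points all lie above 0, from CENPA at 0.77 to KIF20B at 4.98, and most crosses in the upper part lie well to the left of their points.

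Side by side, the kinesins (median log2 fold change 2.33) and kinetochore genes (1.81) were above the kinases (1.49), and the spindle and midbody group (1.31), the condensin and cohesion group (1.03), the passenger complex (0.54) and the cyclin group (0.46) were below. These groups differ in A content, with medians of 33.2% in the spindle and midbody group, 33.0% in the kinesins and 31.2% in the kinetochore genes. The median was 30.6% in the kinases and in the condensin group, 27.8% in the cyclin group and 22.8% in the passenger complex. This order was not that of the fold changes. With the A-content offset the order was kinetochore genes (1.20), passenger complex (0.88), kinases (0.72), kinesins (0.62), cyclins (0.59), condensin and cohesion (0.57) and spindle and midbody (0.37), so the kinesins no longer stood above the kinases. The passenger complex medians are those of 2 genes, INCENP and BIRC5, with AURKB counted among the kinases. The differences between groups were not tested. Within groups the range was wider than between them, from −0.12 to 4.98 in the kinesins and from −0.17 to 4.22 in the condensin group. In all, 23 of the 35 genes were called in every alternative that kept all libraries: ASPM, AURKB, BIRC5, CCNA2, CDC20, CDK1, CENPE, CENPF, HMMR, KIF11, KIF14, KIF15, KIF20B, KNTC1, MAD2L1, NCAPG, NEK2, NUF2, PLK1, PRC1, SMC2, SMC4 and TOP2A.

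Levels of different genes are compared here as CPM per kb of canonical transcript. In shCtrl the most abundant of the 50 were PTTG1 at 174, CDC20 at 124, CCNB1 at 92.1 and AURKA at 87.8 CPM per kb, and the least abundant KIF14 at 0.747, ASPM at 1.31 and KIF15 at 1.45. Of these 4 abundant genes only CDC20 was called higher. In shFOXK2 the order was led by TOP2A at 384, followed by CDC20 at 327 and PTTG1 at 229 CPM per kb. TOP2A had been at 28.1 in shCtrl.

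Other genes of the same pathways were examined as 8 lists with 133 genes, all of them tested and none among the 50. Of these, 78 (58.6%) were higher, 4 were lower and 51 did not pass, with a median log2 fold change of 0.88. Of all tested genes, 25.7% were higher and 22.7% lower. Under the A-content offset 81 were higher and 6 lower, against 28.9% and 22.8% of all. By list the share higher ran from 0% in other condensin to 73.3% in cohesin, with 38.9% in the anaphase-promoting complex and 40% in DREAM and MuvB. This order changed under the A-content offset. Cohesin then had 9 of 15 higher (median 0.68), other mitotic regulators 16 of 20 (0.84) and S phase genes 13 of 18 (0.90). DREAM and MuvB kept 4 of 10, at a median of 0.15. Cohesin, the ring that holds sister chromatids together, and its regulators had 11 of 15 genes higher and 1 lower, with a median of 1.25. Among them SMC3, a core subunit of the ring, rose by 3.58, with 536 and 212 counts against 2699 and 4693. Its partner SMC1A had a log2 fold change of 0.22 (adjusted p-value 0.466). The protectors of centromeric cohesion SGO2 and SGO1 rose by 3.93 and 3.06. Of the loader subunits NIPBL had 2.71, at an A content of 34.3%, and MAU2 −0.68 (adjusted p-value 0.0368), at 21.1%. Under the A-content offset MAU2 was at −0.35 (adjusted p-value 0.115). The A content was 34.3% for SMC3, 38.3% for SGO2 and 33.3% for SGO1. At 32% or more, the median of all tested genes was itself 1.26. Values of SMC3, SGO2, SGO1 and NIPBL under the offset are not given here. SMC1A, NIPBL and the condensin genes below were named after their values were seen.

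The 32 further centromere and kinetochore genes had 23 higher and none lower, with a median of 1.08. The scaffold KNL1 was at 3.46, at an A content of 34.4%. At an unadjusted p-value under 0.05 and by DESeq2, 0 of them were lower as well. Under the A-content offset 1 was lower, and under the GC offset 1. Of 18 anaphase-promoting complex genes 7 were higher, with a median of 0.36, and the number fell to 4 without shCtrl replicate 2 and to 5 without any one of the other libraries. None of the 3 condensin genes outside the 50 was called (NCAPD3 0.49, NCAPG2 0.34 and NCAPH2 0.62), and with either offset 2 of them were. Among other motors and spindle genes 11 of 17 were higher, with a median of 0.97, and both called falls were small: DYNC1H1, the dynein heavy chain, at −0.62 (adjusted p-value 0.0402) and its spindle pole partner NUMA1 at −0.62 (adjusted p-value 0.0383). Neither fall passed under the A-content offset, at −0.30 and −0.29, nor with the replicate block.

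Of 20 further mitotic regulators 12 were higher, with a median of 0.95, and of 18 S phase genes 10 were higher, with a median of 0.77, or 6 without shFOXK2 replicate 2. The 10 DREAM and MuvB regulators, the complex that reads CHR elements, had 4 higher and 1 lower. RBL2 (p130), the pocket protein of the repressive DREAM complex, had 1680 and 875 counts in shCtrl against 276 and 368 in shFOXK2. Its level dropped from 64.9 to 19.8 CPM, with a log2 fold change of −1.71 (adjusted p-value 0.000231, SE 0.27) and −1.92 under the A-content offset. MKI67, the proliferation marker Ki-67, had 4817 and 2021 counts against 8899 and 11157, a log2 fold change of 1.86 (adjusted p-value 0.000155, SE 0.28) and 0.78 with the offset. Of the 4 falls that of RBL2 was the one that passed under every alternative, leaving out each library included, and the libraries of the groups did not overlap for it or for MKI67.

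**Figure D4:**
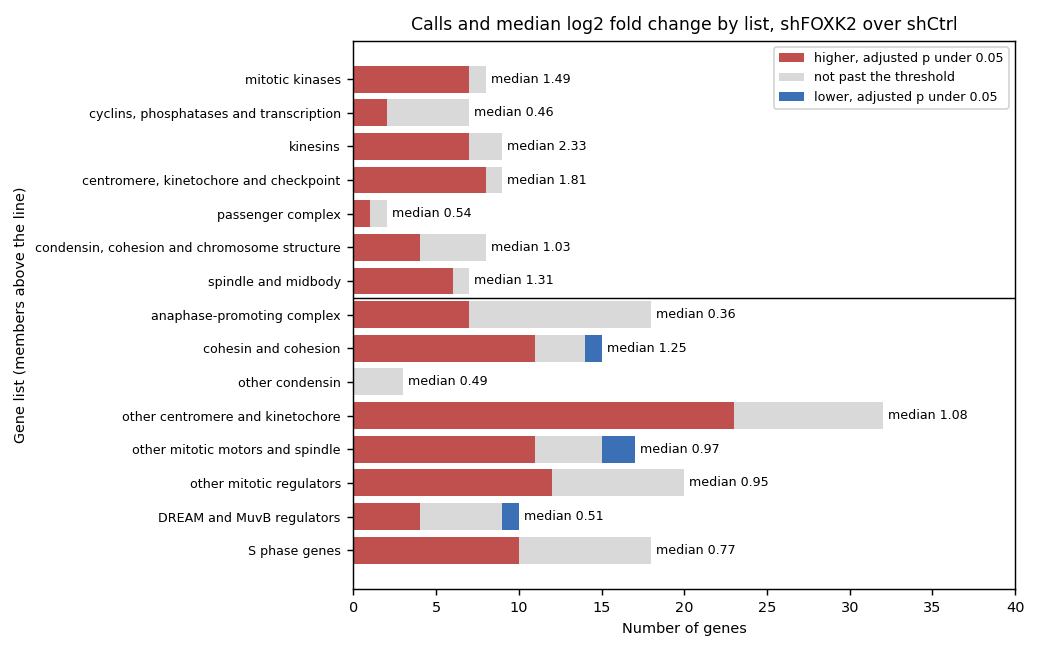
Number of genes of each list that were higher (red), lower (blue) or not past the threshold (grey) in shFOXK2, with the median log2 fold change beside each bar. The 7 groups of the 50 genes stand above the line and the 8 other lists below it. Falls appear only below the line, with 1 in cohesin, 2 in motors and spindle and 1 in DREAM and MuvB.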

How the data were processed

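Poly(A) RNA of OVCAR5 cells was sequenced as single-end reads in 2 shCtrl and 2 shFOXK2 libraries. The authors aligned reads to hg38 (GRCh38) with STAR 2.5.2 and counted them per gene with HTSeq, and they deposited raw counts per gene symbol, without normalization. The strand setting and annotation of the counting are not given in the sources used here. Of the 50 genes, 29 overlap another annotated gene, 23 of them on the other strand, so their counts may be shared.

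Groups and replicate numbers came from the sample titles. Counts were filtered with filterByExpr, given TMM scaling (trimmed mean of M values) and compared in edgeR 4.0.16 (R 4.3.3) by its quasi-likelihood F test, 2-sided, with Benjamini-Hochberg adjustment over 16417 genes and a threshold of 0.05. The SE of a log2 fold change is its size divided by the square root of F. CPM are TMM-scaled, given as mean ± SD. With 2 libraries per group an exact permutation test cannot go below 0.333, so the p-values rest on variance shared between genes. Floors of 3 counts cover counting error only. Replicates were checked not to be copies of one library, with a chi-square of 40.7 and 28.4 per gene.

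Alternatives were DESeq2 1.42.0 (Wald test), its size factors, scaling by library totals, leaving the filter out, requiring 10 or more counts per library, the replicate number as a block, lowess offsets (span 0.2) on GC or A content with and without the block, and leaving out each library. A block with crossed numbers was added after seeing the data. The procedure was tested on simulated data. Positions, transcript length and composition came from GENCODE v44, which matched 37217 of 56655 symbols (65.7%). The genes and lists were chosen with earlier results of these data known. By rule, library counts are given for the largest rise and fall of each group and for 18 set genes. Outside the 50, FOXK2, MKI67 and the 5 largest rises and falls past the threshold are named. Some items that these rules name are not reported here.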

Additional observations from a re-analysis of the deposited data

How the results depend on the processing

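Of the values of the 50 genes under the 11 alternatives that kept all libraries, 488 kept direction and call. With the direction kept, 20 lost the call and 24 gained it. The other 18 changed sign, and among these NDC80, DLGAP5 and ECT2 also lost their call under the A-content offset, without and with the block. With 1 of 4 libraries left out in turn, 183 kept both, 11 lost the call and 6 changed sign. The number of the 50 genes called higher was 34 with the replicate block and with no filter, each time without CENPA, and 35 under the other scalings, DESeq2 and the stricter filter. None was called lower under any alternative. No label says what libraries of the same replicate number share, so the main fit did not take the numbers as pairs. Same-numbered libraries did not deviate together (correlation −0.113). The block gave 7270 called genes in all, against 7940 without it and 8350 with crossed numbers, which left 35 of the 50 called and was tried only after the data had been seen.

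The values below were recomputed with an offset on GC content or A content, and each time once more with the replicate block added. The cause of these shifts was not tested. The median log2 fold change of the 50 genes was 0.95 and 0.95 (GC) and 0.73 and 0.71 (A). By group the medians were 1.06, 1.07, 0.72 and 0.72 in the kinases, 1.37, 1.38, 0.62 and 0.63 in the kinesins, 1.30, 1.30, 1.20 and 1.24 in the kinetochore genes, 0.87, 0.87, 0.88 and 0.88 in the passenger complex, and 0.78, 0.79, 0.57 and 0.58 in the condensin group, which was at 0.93 with no filter. The spindle group had medians of 0.37 and 0.36 and 3 calls under the A-content offset without and with the block, and the kinases had 4 and 4 calls. The cyclin group had 5 calls and the passenger complex 2 under both offsets, without and with the block. In the 8 other lists 1 gene was called lower with the replicate block and 1 with at least 10 counts in every library.

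Signs changed in 10 genes, and in FOXM1 only when a library was left out. Under the A-content offset, without and with the replicate block, the log2 fold change was −0.012 and −0.0022 for AURKA, −0.099 and −0.096 for NDC80, −0.29 and −0.27 for TPX2, −0.39 and −0.40 for DLGAP5, −0.066 and −0.067 for ECT2, and 0.14 and 0.14 for NCAPD2. Under the GC offset NCAPD2 was at 0.15 and 0.15 and KIF20A at 0.10 and 0.097. With no filter CDC25B was at −0.033 and ESPL1 at −0.0088.

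With 1 library left out in turn, the median log2 fold change ran from 1.08 to 1.41 over the 50 genes, from 1.20 to 1.67 in the kinases, from 1.84 to 2.40 in the kinesins, from 1.57 to 1.87 in the kinetochore genes, from 0.93 to 1.06 in the condensin group and from 0.89 to 1.74 in the spindle and midbody group. The cyclin group had between 1 and 2 calls, the passenger complex between 0 and 1, and the other lists between 1 and 4 falls. The ranges of the genes whose sign changed were −0.081 to 0.29 (AURKA), −0.18 to 0.23 (CDC25B), −0.078 to 0.69 (FOXM1) and −0.28 to 0.34 (ESPL1).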
